A study of Homo sapiens with 6 samples.

Results

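Activin subunits, the follistatins that bind them and the activin receptors were followed as 9 genes, picked by name from the 61228 gene names of the count table: INHBB, INHBA, INHA, FST, FSTL1, FSTL3, ACVR1B, ACVR2A and ACVR2B. Each had a row, and 8 of the 9 had enough counts to enter the fit over 14704 genes; INHA did not. The genes were proposed with the difference between these groups already known, so their own values are given as a description, with fold changes and errors but no test. The RNA-seq libraries hold poly(A) RNA of MDA-MB-231, a triple-negative human breast cancer line of mesenchymal character, grown inside droplets of collagen I.

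The 3 KO libraries came from cells nucleofected with Cas9 and guides against ETV1, ETV4 and ETV5, a set of related ETS transcription factors; their titles name ETV4 alone. The 3 control libraries came from the same line, nucleofected with Cas9 and control guides, so Cas9 delivery and the collagen culture were shared by both groups. The labels leave the tag c39 in the KO library names unexplained, and whether it stands for a single clone is not stated. If it does, knockout and clone cannot be told apart. Separate cultures are not stated either, so the errors may reflect technical spread between libraries only.

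Library totals ran from 18042601 to 19250921 counts in KO and from 18806653 to 23232770 counts in control. Replicate 3 stood apart from replicates 1 and 2 in both groups along the second principal component, which held 39.4% of the variance. ETV1 averaged 142 ± 11.1 CPM in KO and 223 ± 13.5 CPM in control, and ETV4 63.7 ± 2.03 CPM in KO and 93.9 ± 2.11 CPM in control (SD, n = 3 each; CPM is the count scaled to a library size of 1e6). Both were lower in the KO libraries. ETV5 averaged 113 ± 1.23 CPM in KO and 112 ± 4.77 CPM in control, with a log2 fold change of 0.01 (SE 0.06), so transcript level did not separate the groups for the third target. The defining markers matched the line. Levels of 6 mesenchymal markers, mainly VIM, summed to between 8053 and 9631 CPM in KO and between 9187 and 11364 CPM in control. They did not share a direction: all KO libraries were above all control libraries for CD44 and CAV1, and below them for MSN. Levels of 6 fibroblast markers, mainly COL1A1, summed to between 11.7 and 14.0 CPM in KO and between 13.3 and 13.4 CPM in control. The hormone receptor genes ESR1 and PGR had 2 and 1 counts over all 6 libraries. The T cell gene CD3E and the endothelial cadherin gene CDH5 had 0 counts in every library. The leukocyte list of 4 genes, mainly CD14 and PTPRC with 106 and 44 counts in all, summed to between 1.14 and 1.39 CPM in KO and between 0.898 and 1.89 CPM in control. Summed levels of 7 luminal or epithelial markers ran from 538 to 578 CPM in KO and from 474 to 508 CPM in control, nearly all of it KRT8, at 525 ± 17.6 CPM in KO and 459 ± 16.4 CPM in control. Levels of 4 endothelial markers, mainly PECAM1 and KDR, summed to values from 5.78 to 8.46 CPM in KO and from 9.73 to 11.0 CPM in control. Their part in the results below was not tested.

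Activins are secreted dimers of inhibin beta subunits. INHBB encodes the beta B subunit and INHBA the beta A subunit, while INHA encodes the alpha subunit, which pairs with a beta subunit to form inhibin, an antagonist of activin. Activin binds the type II receptors ACVR2A and ACVR2B, which recruit and activate the type I receptor ACVR1B, and the active receptor phosphorylates SMAD2 and SMAD3. Follistatin, from FST, and the related FSTL3 bind activin outside the cell and keep it from its receptors; FSTL1 shares a follistatin-like domain and is a secreted glycoprotein with other partners. Breast cancer cells are known both to make and to respond to ligands of this family.

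INHBB (ENSG00000163083, GRCh38 chromosome 2, 120346143 to 120351808, plus strand) was the member with a large difference. It had 63, 84 and 77 counts in KO replicates 1, 2 and 3, against 445, 370 and 509 counts in control replicates 1, 2 and 3. Scaled, these were 3.37, 4.36 and 4.24 CPM in KO libraries, against 21.0, 19.9 and 21.6 CPM in control libraries. The highest KO library lay far below the lowest control library, and the libraries of each group sat close together. Means were 3.99 ± 0.538 CPM in KO and 20.9 ± 0.864 CPM in control (SD, n = 3 each), 5.22-fold lower in KO. The log2 fold change was -2.38 (SE 0.12, 95% interval -2.66 to -2.11). Within same-numbered libraries the log2 difference, KO minus control, was -2.60, -2.17 and -2.32 for replicates 1, 2 and 3. Leaving out both replicate 3 libraries gave -2.40. In bulk RNA, fewer cells that express a gene and less RNA per cell cannot be told apart.

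The promoters of the beta subunit genes are shown because these genes encode the partners of the activin dimer and had unlike values, and because the targeted factors bind DNA. Each sequence is the 250 bases before the RefSeq start of the gene (GRCh38.p14), read along the gene's strand: chr2:120345886-120346135, plus strand, for INHBB, and chr7:41703091-41703340, minus strand, for INHBA. Capitals mark GGAA, the core of ETS factor sites, or its reverse complement TTCC.
INHBB: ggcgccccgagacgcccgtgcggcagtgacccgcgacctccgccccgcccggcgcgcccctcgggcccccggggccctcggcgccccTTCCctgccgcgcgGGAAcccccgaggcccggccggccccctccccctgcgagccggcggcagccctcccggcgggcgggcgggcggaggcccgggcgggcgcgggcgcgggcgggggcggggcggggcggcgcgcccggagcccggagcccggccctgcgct
INHBA: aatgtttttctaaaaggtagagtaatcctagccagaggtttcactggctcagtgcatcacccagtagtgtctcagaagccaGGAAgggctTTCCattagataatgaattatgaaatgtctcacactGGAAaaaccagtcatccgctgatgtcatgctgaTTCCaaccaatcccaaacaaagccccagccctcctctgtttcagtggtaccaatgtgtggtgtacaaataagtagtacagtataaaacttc
The INHBB window held 2 matches to GGAA or TTCC and the INHBA window 4. Over 35116 promoter windows of this length the median was 3 matches, and 92.7% held at least 1 match. The longer ETS form CCGGAA or its reverse complement TTCCGG, which contains the core, was in neither window and in 14.5% of all windows. The letters ACGTG and GCGTG, the cores of hypoxia elements, were in neither window on either strand, against 18.5% and 32.2% of all windows. A match is a description of the letters and not a bound site. By base composition the windows were far apart: G and C made up 89.6% of the INHBB window and 42.8% of the INHBA window, with a median of 58.0% over all windows. Of the 35116 windows, 8 had a higher G and C content than that of INHBB. The INHBB window also held 10 matches to the GC box GGGCGG or CCGCCC, which 42.6% of windows held at least once, and the INHBA window held 0.

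INHBA (ENSG00000122641, chromosome 7, 41667168 to 41705834, minus strand) was near the lower end of what these libraries resolve. It had 18, 28 and 33 counts in KO replicates 1, 2 and 3, against 29, 18 and 21 counts in control replicates 1, 2 and 3. That was 0.964, 1.45 and 1.82 CPM in KO libraries and 1.37, 0.970 and 0.893 CPM in control libraries. The groups overlapped, and the same-numbered pairs did not share a direction, at -0.47, 0.54 and 0.95 on the log2 scale for replicates 1, 2 and 3. The log2 fold change was 0.39 (SE 0.32), with a 95% interval from -0.34 to 1.11. The interval holds both no difference and a difference of more than 2-fold, so a change in INHBA was not detectable in these libraries. The value was 0.04 without both replicate 3 libraries, 0.19 without KO replicate 3 and 0.61 without KO replicate 1.

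INHA (ENSG00000123999, chromosome 2, 219569162 to 219575713, plus strand) had 2, 2 and 6 counts in KO replicates 1, 2 and 3, against 11, 10 and 11 counts in control replicates 1, 2 and 3. All KO libraries were below all control libraries, at 0.107, 0.104 and 0.330 CPM in KO and 0.520, 0.539 and 0.468 CPM in control. Summed over libraries, 10 counts in KO against 32 in control gave a KO over control ratio of 0.352 with an exact 95% interval of 0.1545 to 0.7345, which covers counting error only. A level of 3 counts is worth between 0.1558 and 0.1651 CPM in the KO libraries, so KO replicates 1 and 2 lay below it. The gene lies across from OBSL1, which is on the opposite strand and took more counts, at 51.5, 46.8 and 44.4 CPM in KO libraries and 85.1, 80.2 and 76.5 CPM in control libraries. The overlap is one of gene bounds, and overlap of exons was not checked. The counting strand is not given in the sources used here, so whether reads of OBSL1 were counted for INHA is not known. The part of OBSL1 in the INHA difference was not tested.

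**Figure D1:**
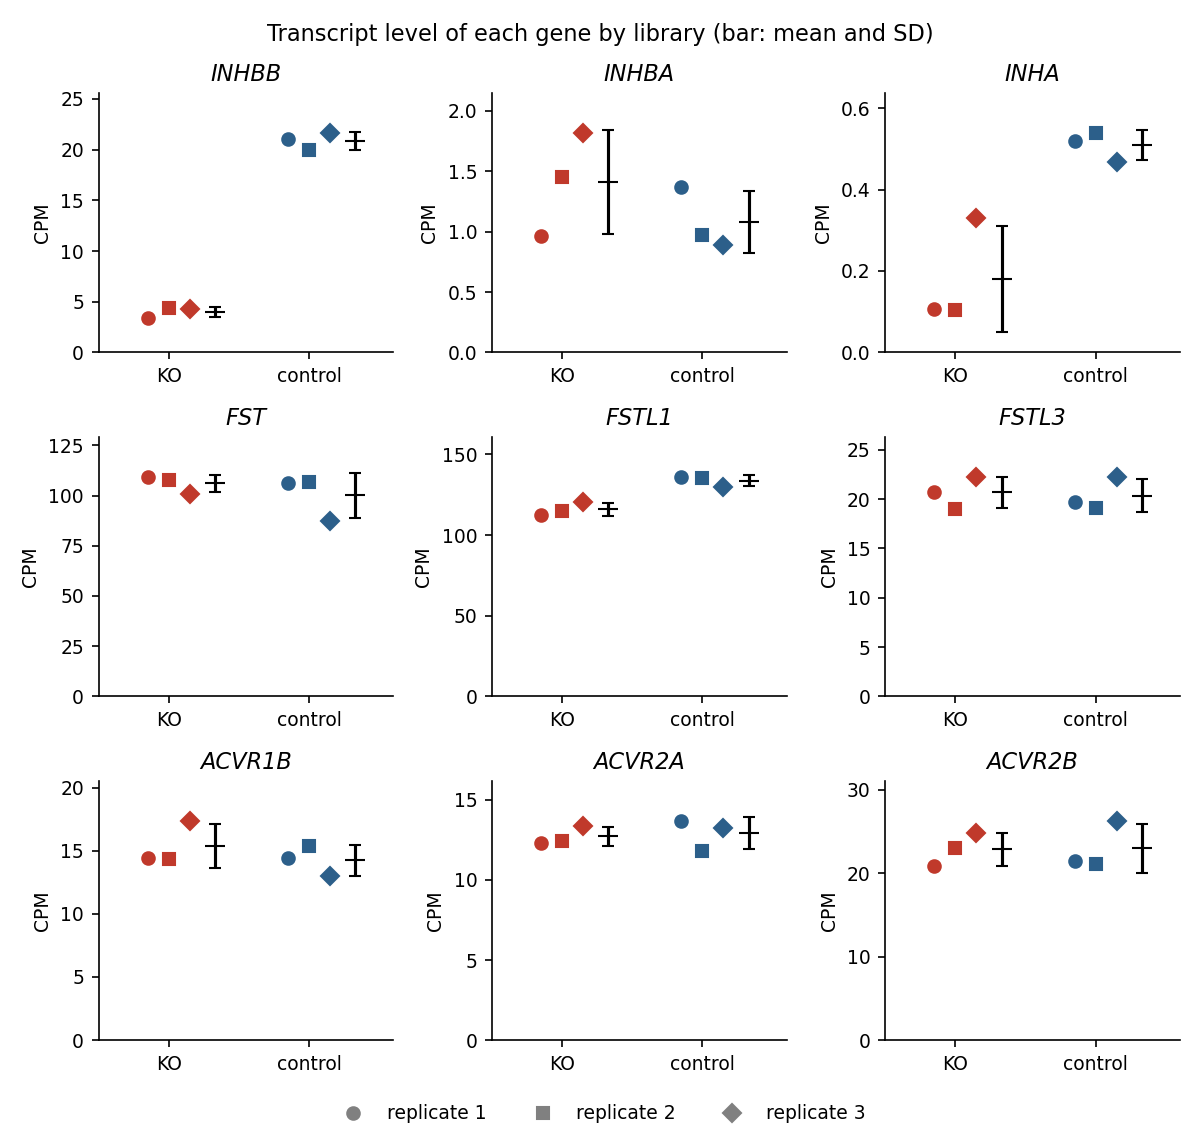
CPM (vertical axis, from 0) of each of the 9 genes in the 3 KO and the 3 control libraries, with the mean and SD beside the points and the replicate number as the marker shape. INHBB lies between 3.37 and 4.36 CPM in KO and between 19.9 and 21.6 CPM in control, while the groups overlap for FST, FSTL3 and the receptors.

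Among the follistatins, FST and FSTL3, which bind and neutralise activin, differed by less than the spread between libraries. FST (ENSG00000134363, chromosome 5, 53480409 to 53487134, plus strand) had 109, 108 and 101 CPM in KO replicates 1, 2 and 3, against 106, 107 and 87.3 CPM in control replicates 1, 2 and 3. Replicate 3 was the lowest library of both groups, and the groups overlapped. The FST log2 fold change was 0.08 (SE 0.09, 95% interval -0.11 to 0.28). FSTL3 (ENSG00000070404, chromosome 19, 676365 to 683399, plus strand) had 20.8, 19.1 and 22.2 CPM in KO libraries, against 19.8, 19.1 and 22.3 CPM in control libraries. Replicate 3 was here the highest library of both groups. Its log2 fold change was 0.02 (SE 0.10, 95% interval -0.20 to 0.24).

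FSTL1 (ENSG00000163430, chromosome 3, 120392293 to 120451253, minus strand) differed slightly and in all libraries. It had 112, 115 and 120 CPM in KO replicates 1, 2 and 3, against 136, 135 and 130 CPM in control replicates 1, 2 and 3. The KO libraries were all below the control libraries, with the nearest pair being the replicate 3 libraries. The mean was 116 ± 4.17 CPM in KO and 134 ± 3.36 CPM in control, 1.15-fold lower in KO. The log2 fold change was -0.21 (SE 0.06, 95% interval -0.34 to -0.08). Pair by pair the log2 difference was -0.28, -0.23 and -0.11 for replicates 1, 2 and 3.

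For each of the 3 receptors the KO and control libraries overlapped. The type I receptor ACVR1B (ENSG00000135503, chromosome 12, 51951667 to 51997078, plus strand) had 14.4, 14.4 and 17.4 CPM in KO replicates 1, 2 and 3, against 14.4, 15.4 and 13.0 CPM in control replicates 1, 2 and 3. Replicate 3 was the highest KO library and the lowest control library. Its log2 fold change was 0.11 (SE 0.11, 95% interval -0.15 to 0.37). The type II receptor ACVR2A (ENSG00000121989, chromosome 2, 147844517 to 147930826, plus strand) had 12.3, 12.5 and 13.4 CPM in KO libraries, against 13.7, 11.8 and 13.3 CPM in control libraries. The groups overlapped, and the log2 fold change was -0.02 (SE 0.10, 95% interval -0.25 to 0.20). The type II receptor ACVR2B (ENSG00000114739, chromosome 3, 38453851 to 38493142, plus strand) had 20.8, 23.1 and 24.8 CPM in KO libraries, against 21.5, 21.1 and 26.3 CPM in control libraries. It was highest in replicate 3 of both groups, with a log2 fold change of -0.0083 (SE 0.11, 95% interval -0.26 to 0.24). ORC4, which overlaps ACVR2A on the opposite strand, ran from 35.8 to 38.2 CPM in KO and from 36.7 to 39.2 CPM in control.

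**Figure D2:**
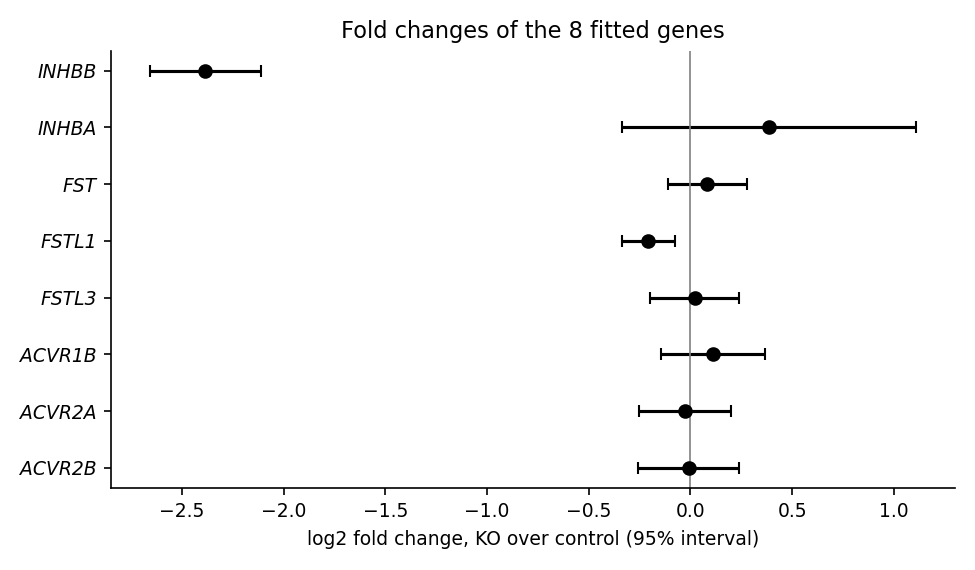
Log2 fold change, KO over control, with its 95% interval for the 8 fitted genes (INHA had too few counts). INHBB is at -2.38 and FSTL1 at -0.21, and the intervals of the other 6 genes include 0.

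Of the 8 fitted members 1 was past the threshold of edgeR's fit over all genes (Benjamini-Hochberg adjusted p under 0.05), against 9.7% of the 14704 genes (6.42% lower and 3.28% higher in KO). That member was INHBB. With the replicate number as a block 2 were past it, INHBB and FSTL1, against 33.9% of all genes. KO and control libraries did not overlap for INHBB and FSTL1, 2 of the 8 fitted members, and for 31.7% of all genes tested. As this contrast was known when the genes were chosen, nothing is read from these counts.

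Set per kilobase of exon, so that levels can be compared between genes, the follistatins were the most abundant members. FST averaged 35.7 ± 1.49 CPM per kilobase in KO and 33.7 ± 3.74 CPM per kilobase in control, and FSTL1 13.3 ± 0.478 in KO and 15.3 ± 0.385 in control on the same scale. FSTL3 came next, at 6.75 ± 0.520 CPM per kilobase in KO and 6.64 ± 0.550 CPM per kilobase in control. INHBB took place 7 of 9 in KO, at 1.25 ± 0.168 CPM per kilobase, and place 4 in control, at 6.51 ± 0.270 CPM per kilobase. In KO libraries INHBB overlapped with ACVR2B and lay below ACVR1B and ACVR2A. In control libraries it overlapped with FSTL3 and lay above every receptor. These places rest on the exon lengths used. Without division by length, INHBB averaged 20.9 CPM in control and overlapped with ACVR2B, which averaged 23.0 CPM. In KO, at 3.99 CPM, INHBB then lay below every receptor. The receptors kept the order ACVR1B, ACVR2A, ACVR2B in both groups, and neighbours in this order did not overlap in either group. They averaged 2.71, 1.88 and 1.45 CPM per kilobase in KO and 2.51, 1.91 and 1.46 CPM per kilobase in control. Not divided by length, ACVR2B was the highest receptor, at 22.9 CPM in KO and 23.0 CPM in control. FSTL1 then also averaged above FST, at 116 against 106 CPM in KO and 134 against 100 CPM in control. INHBA and INHA were the lowest members. They overlapped in KO, at 0.170 ± 0.0515 CPM per kilobase for INHBA and 0.103 ± 0.0740 CPM per kilobase for INHA. They stood apart in control, at 0.130 ± 0.0309 CPM per kilobase for INHBA and 0.290 ± 0.0210 CPM per kilobase for INHA. Not divided by length, INHBA was above INHA, at 1.41 against 0.180 CPM in KO and 1.08 against 0.509 CPM in control.

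**Figure D3:**
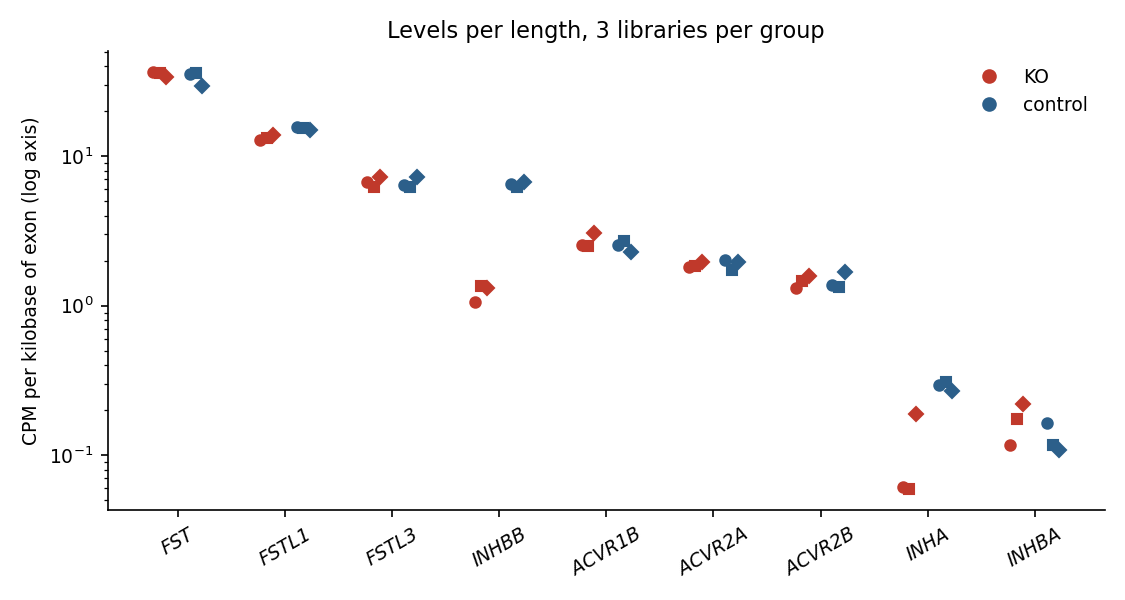
CPM per kilobase of exon (log axis) of the 9 genes in the 3 KO and the 3 control libraries, ordered by control level. INHBB averages 1.25 in KO, below the means of the receptors, and 6.51 in control, beside FSTL3, while the follistatins and receptors keep their order.

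The make-up of the beta subunit transcripts followed from these levels. INHBB made up 90.1%, 88.6% and 85.8% of the summed INHBB and INHBA level per kilobase in KO replicates 1, 2 and 3, against 97.5%, 98.2% and 98.4% in control replicates 1, 2 and 3. INHBB remained the main beta subunit transcript in all 6 libraries, and the groups did not overlap. The summed beta subunit level was 1.42 ± 0.213 CPM per kilobase in KO and 6.64 ± 0.272 CPM per kilobase in control. The summed level of FST and FSTL3 was 42.5 ± 1.17 CPM per kilobase in KO and 40.3 ± 3.20 CPM per kilobase in control, with overlapping libraries. As a ratio, FST and FSTL3 transcripts exceeded beta subunit transcripts 37.3, 27.7 and 26.8 times in KO replicates 1, 2 and 3, against 6.27, 6.66 and 5.34 times in control replicates 1, 2 and 3. These are ratios of transcript levels, and protein was not measured. The summed level of ACVR1B, ACVR2A and ACVR2B was 6.04 ± 0.498 CPM per kilobase in KO and 5.87 ± 0.0724 CPM per kilobase in control. ACVR2B made up 43.6% ± 1.28 of type II receptor transcripts in KO and 43.3% ± 2.88 in control (SD, n = 3 each). Without division by length its share was 64.2% in KO and 63.9% in control. Which type II receptor came first therefore rests on the exon lengths used.

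The genes with profiles nearest to that of INHBB were NDRG1, DNAH11, PDE2A, ALDOC and MIR210HG, by the Euclidean distance of centred log2 CPM over the 6 libraries among 10807 genes with a mean of at least 5 CPM. NDRG1, a stress-responsive gene, lay at a distance of 0.381 and had 93.5, 93.5 and 99.8 CPM in KO libraries, against 594, 550 and 586 CPM in control libraries. DNAH11, a dynein heavy chain gene, lay at 0.547, PDE2A, a phosphodiesterase gene, at 0.626, the aldolase gene ALDOC at 0.692 and MIR210HG, the host transcript of a microRNA, at 0.888. With Pearson correlation in place of distance, 0 of these 5 were among the 5 nearest, which were TMEM154, TNNT1, BNIP3, ZEB1 and RTN2. With 6 libraries in 2 groups, both measures mainly follow the difference between the groups.

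**Figure D4:**
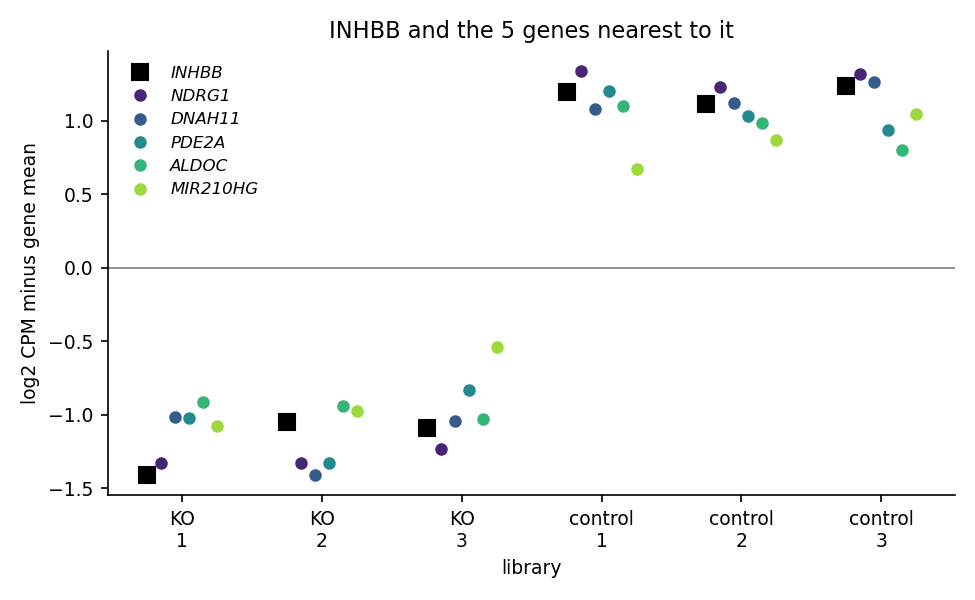
Log2 CPM minus the gene's mean over the 6 libraries (vertical axis) for INHBB (squares) and the 5 genes nearest to it (circles), by library. All 6 genes lie below their mean in the 3 KO libraries and above it in the 3 control libraries.

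Other genes of the pathway were not members, and they were tested in the same fit. Their lists were chosen with earlier results of these data known. The shares called in each list are therefore a description, and no enrichment is read from them. Of 7 other activin-class ligand genes, 2 were abundant enough to be tested and 0 passed edgeR's test, with 0 at an unadjusted p under 0.05 and 0 in DESeq2. GDF11, a ligand that also signals through type II activin receptors, averaged 14.7 ± 0.488 CPM in KO and 12.9 ± 1.52 CPM in control (log2 fold change 0.19, SE 0.11, edgeR adjusted p = 0.325). INHBE, the gene of another beta subunit, averaged 0.466 ± 0.228 CPM in KO and 0.627 ± 0.235 CPM in control (edgeR adjusted p = 0.647). INHBC averaged 0 CPM in KO and 0.0315 CPM in control, and NODAL, GDF1 and GDF3 had no count in any library.

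Of 11 tested receptors and coreceptors outside the members, 1 rose, 1 fell and 9 did not pass (18.2% called, against 9.7% of all genes), with a median log2 fold change of 0.13, against 0 over all genes. TGFBR1, the type I receptor for TGF-beta, which also signals through SMAD2 and SMAD3, rose to 95.3 ± 4.04 CPM in KO, against 74.6 ± 3.32 CPM in control (log2 fold change 0.35, SE 0.06, edgeR adjusted p = 0.00951). Without control replicate 2 it did not pass (edgeR adjusted p = 0.0618). TGFBR2, the type II receptor for TGF-beta, fell to 247 ± 26.1 CPM in KO, against 349 ± 28.7 CPM in control (log2 fold change -0.50, SE 0.09, edgeR adjusted p = 0.0129). Its call was lost without KO replicate 1 (edgeR adjusted p = 0.0505), control replicate 1 (0.0645) or control replicate 2 (0.0656). ACVR1, a type I receptor used by several ligands of the family, and ACVR1C, a type I receptor for activin B and nodal, did not pass, at 19.0 ± 3.11 and 0.751 ± 0.129 CPM in KO and 20.6 ± 2.82 and 0.611 ± 0.0708 CPM in control. The coreceptor genes TDGF1 and CFC1 had no count.

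Of 16 listed genes of ligand processing and other extracellular antagonists, 5 were abundant enough to be tested: FURIN, PCSK5, PCSK7, SPOCK1 and AGRN. Of these, 1 rose, 1 fell and 3 did not pass (40% called, against 9.7% of all genes). Their median log2 fold change was 0.09. The antagonist genes WFIKKN1, WFIKKN2, LEFTY1, LEFTY2 and CER1 had too few counts to be tested. The genes called were SPOCK1 and AGRN, and whether their products act on activin was not tested. FURIN, a convertase that cleaves activin precursors, averaged 53.3 ± 3.47 CPM in KO and 50.1 ± 3.19 CPM in control and did not pass (log2 fold change 0.09, SE 0.08, edgeR adjusted p = 0.524). SPOCK1, a testican with a follistatin-like domain, rose to 3.75 ± 0.301 CPM in KO, against 2.05 ± 0.472 CPM in control (log2 fold change 0.86, SE 0.21, edgeR adjusted p = 0.0344). It passed in 0 of the 6 fits that left out 1 library, with edgeR adjusted p between 0.0515 without control replicate 1 and 0.12 without control replicate 2. AGRN, the proteoglycan agrin, which carries follistatin-like domains, fell to 306 ± 24.2 CPM in KO, against 384 ± 12.5 CPM in control (log2 fold change -0.33, SE 0.07, edgeR adjusted p = 0.0245). Its call held in 2 of the 6 such fits, those without KO replicate 3 (0.016) and without control replicate 3 (0.0499).

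The genes of the SMAD proteins that carry the signal did not pass the test. SMAD2 averaged 57.1 ± 3.66 CPM in KO and 57.6 ± 5.18 CPM in control, SMAD3 213 ± 8.24 CPM in KO and 218 ± 7.36 CPM in control, and their partner SMAD4 39.1 ± 2.75 CPM in KO and 41.0 ± 3.19 CPM in control. Of the 18 genes of SMAD2/3 signalling and its regulators, 1 rose, 2 fell and 15 did not pass (16.7% called, against 9.7% of all genes; median log2 fold change 0.01). With the replicate block 3 of the 18 rose and 3 of the 18 fell, near the 17.2% and 16.7% of all genes. SMURF2, a ubiquitin ligase that acts on receptors and SMADs, fell to 181 ± 4.32 CPM in KO, against 230 ± 3.52 CPM in control (log2 fold change -0.34, SE 0.06, edgeR adjusted p = 0.0062). This held in 6 of 6 fits with 1 library left out. DAB2, an endocytic adaptor that links receptors to SMADs, fell to 36.8 ± 2.82 CPM in KO, against 47.8 ± 1.85 CPM in control (log2 fold change -0.38, SE 0.08, edgeR adjusted p = 0.0174). Its call was lost without KO replicate 2 (edgeR adjusted p = 0.0628), control replicate 1 (0.0844) or control replicate 2 (0.073). SMAD7, the inhibitory SMAD that is itself induced by the pathway, rose to 9.54 ± 0.721 CPM in KO, against 6.87 ± 0.668 CPM in control (log2 fold change 0.47, SE 0.12, edgeR adjusted p = 0.0453). Of the fits with 1 library left out it passed in that without control replicate 3 (0.0414), and the others ran from 0.0506 without KO replicate 3 to 0.175 without control replicate 2. It did not pass in DESeq2 (adjusted p = 0.0648) or in edgeR with upper-quartile factors (adjusted p = 0.0553).

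Known target genes of SMAD2 and SMAD3 moved in both directions. Of 17 tested, 2 rose, 4 fell and 11 did not pass (35.3% called, against 9.7% of all genes), with a median log2 fold change of -0.01, against 0 over all genes. With the replicate block 3 of the 17 rose and 8 of the 17 fell, against 17.2% and 16.7% of all genes. The genes that fell were BHLHE40, LTBP2, ANGPTL4 and CCN2. BHLHE40, a transcriptional repressor that also responds to low oxygen, fell to 84.9 ± 2.18 CPM in KO, against 130 ± 12.0 CPM in control (log2 fold change -0.62, SE 0.08, edgeR adjusted p = 0.00147). LTBP2, a latent TGF-beta binding protein of the matrix, fell to 11.2 ± 0.343 CPM in KO, against 17.8 ± 1.31 CPM in control (log2 fold change -0.67, SE 0.10, edgeR adjusted p = 0.00335). Both passed in 6 of 6 fits with 1 library left out, as did IL11.

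IL11, a cytokine of the interleukin-6 family, rose to 104 ± 9.42 CPM in KO, against 70.8 ± 3.59 CPM in control (log2 fold change 0.56, SE 0.08, edgeR adjusted p = 0.00328). SMAD7, above, was the other member of the list that rose. ANGPTL4, a secreted inhibitor of lipoprotein lipase that also responds to low oxygen, fell to 10.9 ± 1.17 CPM in KO, against 16.1 ± 1.02 CPM in control (log2 fold change -0.56, SE 0.11, edgeR adjusted p = 0.0146). Its call was lost without KO replicate 2 (edgeR adjusted p = 0.0683), control replicate 1 (0.066) or control replicate 2 (0.0752). CCN2, connective tissue growth factor, which is also a target of YAP and TAZ, fell to 704 ± 35.8 CPM in KO, against 865 ± 61.1 CPM in control (log2 fold change -0.30, SE 0.07, edgeR adjusted p = 0.0386). CCN2 passed in 1 of 6 such fits, that without control replicate 3 (0.0178), with the highest value, 0.168, without control replicate 2. It passed in DESeq2 (adjusted p = 0.00939) and in edgeR without both replicate 3 libraries (adjusted p = 1.4e-06).

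**Figure D5:**
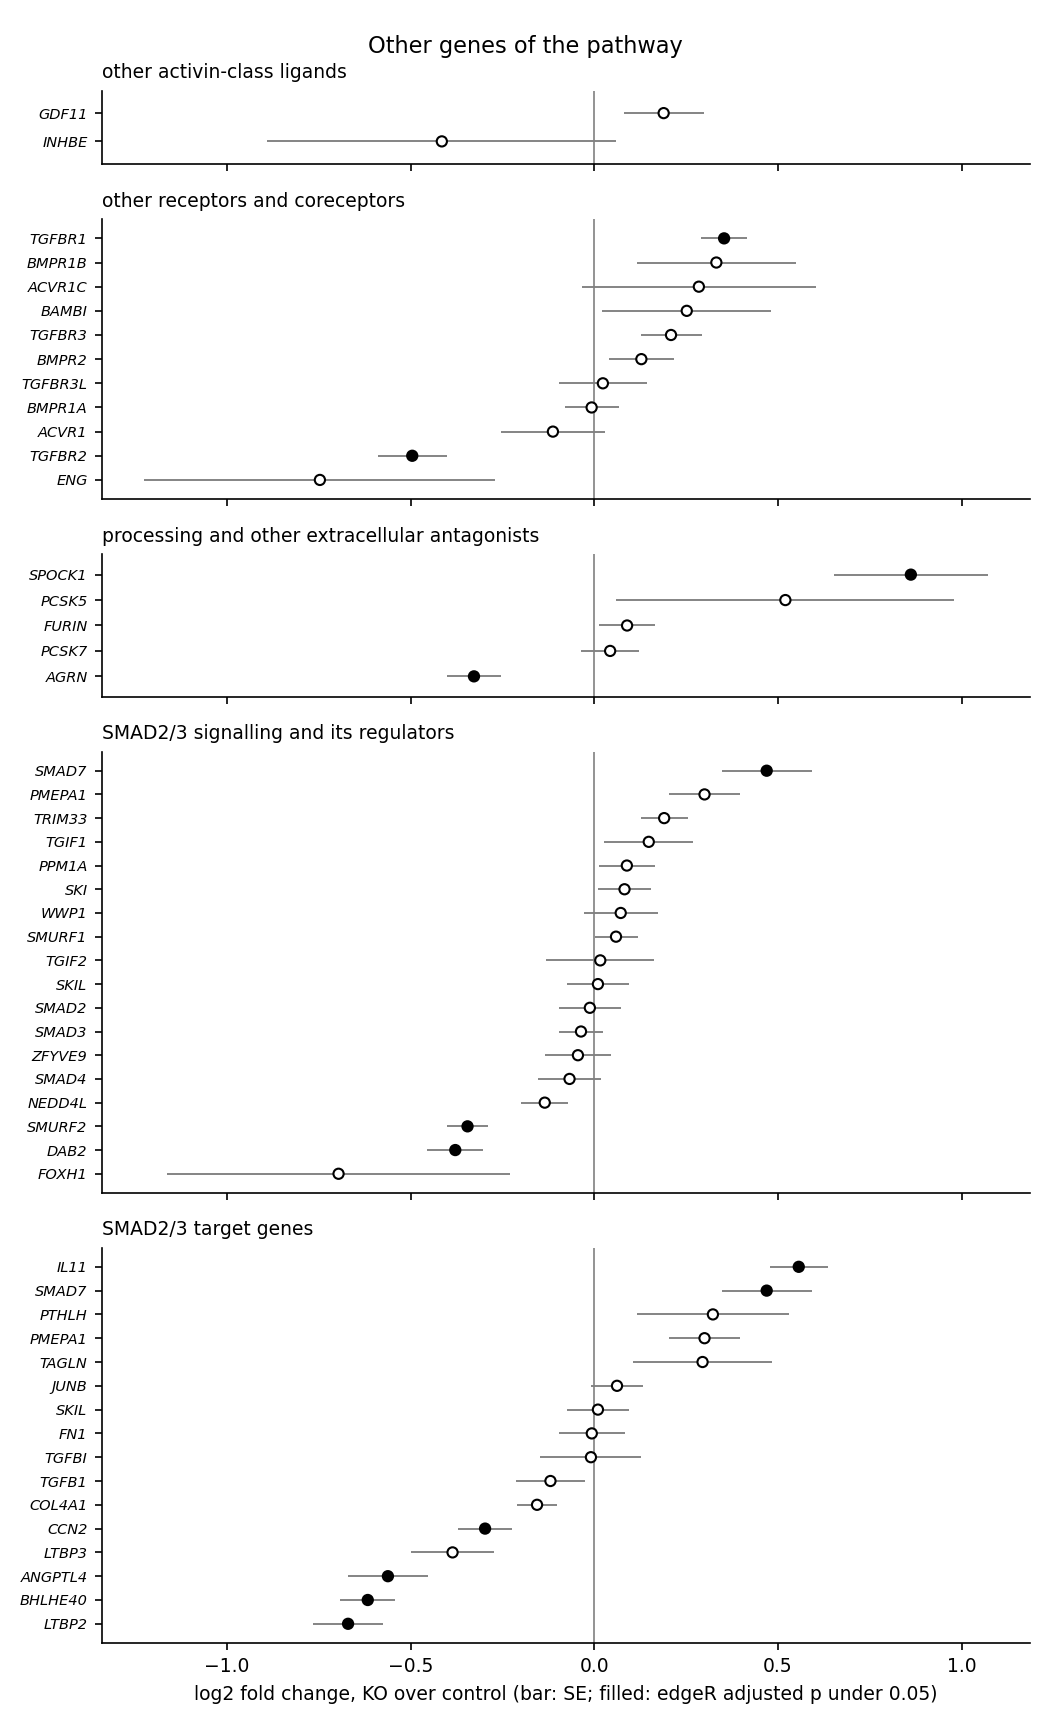
Log2 fold change, KO over control (horizontal axis), with its SE for the tested genes of the 5 pathway lists, except 1 target gene that is not reported here, grouped by list, with filled circles for an edgeR adjusted p under 0.05. Filled circles lie on both sides of 0 in 4 of the lists, and none is beyond a log2 fold change of 0.86, while INHBB, which is not drawn, had -2.38.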

How the data were processed

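Gene counts came from 6 polyadenylated RNA libraries, 3 KO and 3 control, grouped and numbered by their sample titles. The authors deposited raw counts of reads per gene name. The submitters' processing notes name build hg38, STAR 2.7.9a, featureCounts, R 4.1.1 and FastQC 0.11.9. Not given in the sources used here are the strand setting, the annotation and the treatment of multiply mapped reads. The fit used edgeR 4.0.16 (limma 3.58.1, R 4.3.3): filterByExpr, TMM factors, glmQLFit with robust estimation, glmQLFTest with group as the term, and Benjamini-Hochberg adjustment over 14704 genes at 0.05. It was also run on simulated counts, which held no offset of replicate 3 and so do not cover that feature of the data. CPM used TMM-scaled totals. Intervals (95%) used the fit's SE and degrees of freedom. Per-kilobase levels used the union of exons in GENCODE 29 (GRCh38), which need not be the annotation behind the counts, and positions come from it. All 9 members matched RefSeq's promoter table (GRCh38.p14) by symbol.

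One list gene is counted with its list and not reported by name. The members and lists were chosen with earlier results of these data known. Named genes are the members, the targeted genes, from each list up to 4 called genes per direction, by adjusted p, or the 2 most abundant where none passed, and the 5 genes nearest to INHBB; unlisted genes named besides, and list genes that did not pass, were chosen after their values were seen. Alternatives were a replicate block, DESeq2 1.42.0, RLE and upper-quartile factors, no low-count filter, a prior count of 2, each library left out, and both replicate 3 libraries left out. Deviations from group means over 10032 genes correlated between same-numbered libraries at 0.546, 0.45 and 0.828 for replicates 1, 2 and 3, all above 0.1, so the numbers were taken to pair libraries; this comes from the data and not from the labels. KO replicate 2 correlated more with control replicate 1 (0.592), and KO replicate 1 with control replicate 2 (0.584). The shared structure thus sets replicate 3 apart and does not tell replicates 1 and 2 from each other. The main fit and the fits with 1 library left out have group as their only term, so they count the offset of replicate 3 as spread within groups. With 1 library left out, replicate 3 also makes up unequal shares of the groups. The replicate block takes that offset out. No replicate pair matched within sampling noise (lowest chi-square per degree of freedom 3.88).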

Additional observations from a re-analysis of the deposited data

How the results depend on the processing

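INHBB kept its direction under all 13 alternatives run, with log2 fold changes from -2.45 to -2.27 over the fits with 1 library left out. It stayed past the threshold in each, though a prior count of 2 alters the fold change only and leaves the test as it was. As INHBB was chosen with this contrast known, nothing is read from these calls. The count of members past the threshold was 2 in place of 1 with the replicate block, with upper-quartile factors and without both replicate 3 libraries, and 1 to 2 with 1 library left out; the added member was FSTL1. Members near 0 changed sign. INHBA did not change sign and ran from 0.19 to 0.61 with 1 library left out. In the same fits FST ran from -0.0066 to 0.14, FSTL3 from -0.024 to 0.090, ACVR2A from -0.084 to 0.020 and ACVR2B from -0.064 to 0.10. ACVR2B was 0.0015 in DESeq2, and without both replicate 3 libraries ACVR2B was 0.042 and ACVR1B -0.049. The causes were not tested.

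Over all genes 1427 passed, 4983 with the replicate block, 3754 without both replicate 3 libraries, and 572 to 1741 with 1 library left out. In the lists, the receptors had 0 to 2 calls with 1 library left out, the processing genes 0 to 1, the SMAD2/3 regulators 1 to 4 and the target genes 3 to 6. The replicate block gave 6 calls among regulators and 11 among targets, and leaving out both replicate 3 libraries gave 6 among regulators; the block moved no other list count by over 1.5 times. Without division by length, INHBB made up 74.3% of beta subunit counts in KO and 95.1% in control, and the FST and FSTL3 ratio was 24.1 in KO. The nearest genes shared 0 of 5 between the measures of likeness. SMAD7 lost its call in DESeq2 and with upper-quartile factors. TGFBR1, TGFBR2, SPOCK1, AGRN, DAB2, ANGPTL4 and CCN2 lost theirs only in fits with 1 library left out. These genes passed with the replicate block, in DESeq2 and with RLE or upper-quartile factors. They also passed with no low-count filter and without both replicate 3 libraries. INHA and INHBA rest on few counts (10 and 32 for INHA in KO and control).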
